A study of Mus musculus with 11 samples.

Results

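The 49 genes described here code for the nuclear pore and for the carriers that move protein and RNA through it. They were chosen by name: each gene symbol of the platform annotation that starts with Nup or Ipo (followed by a digit), Kpna, Kpnb, Xpo or Ranbp, plus Ran, Rangap1, Rcc1, Tnpo1, Tnpo2, Tnpo3, Cse1l, Nxf1 and Nxt1, out of 15803 genes measured. Tpr and Ndc1 were also named by the rule but had no symbol of their own in the annotation and were not used under those names. RNA came from NSC34 cells, a mouse line made by fusing neuroblastoma with spinal cord cells, which has motor neuron features. Lines were made by transfection with a pSUPERIOR hairpin vector and stable clones were taken under puromycin, so all groups share vector and selection. In shTardbp (4 arrays, numbered 1 to 4) the hairpin targets Tardbp. The controls are shGFP (4 arrays, numbered 1, 2, 3 and 5), with a hairpin to green fluorescent protein, and shLuciferase (3 arrays, numbered 1, 2 and 4), with one to Renilla luciferase. Whether a group's arrays stand for different clones or cultures is not stated, so every p-value measures only the spread among these arrays, possibly a technical one. The hairpin was directed at this Tardbp stretch of 25 bases, as the labels' protocol gives it, shown because it is what sets the shTardbp vector apart.
Tardbp target: tctaagcaaagccccagacgagcct

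The nuclear pore is a large channel in the nuclear envelope, built from many copies of proteins called nucleoporins. Outer and inner rings form its frame, flexible nucleoporins fill its central channel, and filaments and a basket reach into cytoplasm and nucleus. Importins carry proteins in and exportins carry cargo out, and the small GTPase Ran sets the direction, being loaded with GTP in the nucleus by Rcc1 and made to hydrolyse it in the cytoplasm with the help of Rangap1 and Ranbp1. TDP-43, the product of Tardbp, is itself a nuclear RNA-binding protein imported by this machinery, and it leaves the nucleus of motor neurons in amyotrophic lateral sclerosis.

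Tardbp was lower in shTardbp, with gene values of 8.80 to 8.997 in shTardbp and 9.08 to 9.42 in the 7 control arrays. A gene value is the mean log2 value of the gene's probe sets, short stretches of a transcript that the array measures one by one, and values of different genes are not comparable as levels. The log2 change of Tardbp was -0.40 (SE 0.0722), or 75.8% of control, with an adjusted p of 0.000713 in limma and a two-sided exact permutation p of 0.00303, the smallest that 330 splits can give. Array medians lay between 6.82 and 6.92. Of the 13 neuronal markers measured, 1 was higher in shTardbp and 12 did not pass. The higher one was Slc18a3, the vesicular acetylcholine transporter, by 0.63 (adjusted p = 0.000129). The motor neuron genes Mnx1, Chat and Slc5a7 lay below the 25th percentile of each array. Isl1, also a motor neuron gene, ranged from 7.77 to 8.39 in shTardbp and from 7.39 to 8.74 in the controls. Isl1 was lower in shTardbp than in shGFP by -0.51 (adjusted p = 0.00429) and higher than in shLuciferase by 0.60 (adjusted p = 0.0028). Between the controls, shGFP had Isl1 higher by 1.11 (adjusted p = 6.73e-05). The neuronal markers' summed linear level was 17410 to 20398 in shTardbp, 16212 to 17178 in shGFP and 17879 to 18240 in shLuciferase. Some markers of other cells also differed in shTardbp, beside 17.0% of all genes lower and 13.5% higher in the same contrast. Of 6 fibroblast genes 2 were lower in shTardbp, Dcn by a log2 change of -1.61 and Pdgfra by -0.92. Lum lay below the 25th percentile on all arrays. The fibroblast genes' summed level was 231 to 251 in shTardbp, 393 to 467 in shGFP and 370 to 386 in shLuciferase. Dcn and Pdgfra also differed in shGFP from shLuciferase, by 1.14 (adjusted p = 1.43e-05) and -0.45 (adjusted p = 0.00685). Of 5 glial genes 1 was higher (Mbp, 0.24), of 3 endothelial genes 1 was higher (Pecam1, 0.41), none of 4 muscle genes passed, and of 5 microglial genes none passed and Aif1, Csf1r, Itgam and Ptprc lay below the 25th percentile on all arrays. The part of these shifts in the results below was not tested. In bulk RNA, fewer cells of a kind and less RNA per cell cannot be told apart.

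Of the 49 transport genes, 19 were lower in shTardbp than in the mean of the control groups, 2 were higher and 28 did not pass. Both counts refer to limma with a Benjamini-Hochberg adjusted p under 0.05 over all 15803 genes. The contrast set shTardbp against the mean of the shGFP and shLuciferase means, and is called against both controls below. A gene can pass in it without differing from each control on its own. Among all genes 30.5% passed, 17.0% lower and 13.5% higher, so the 38.8% of transport genes that fell stands beside a background of 17.0% and the 4.08% that rose beside 13.5%. The median log2 change of the 49 genes was -0.12, against 0.01 over all genes, and 35 of the 49 changes were negative. Changes were small: the largest fall was -0.61 (Nup85) and the largest rise 0.52 (Ranbp6), and 10 genes had all 4 shTardbp values below all 7 control values (background 9.82%), while none had them all above (background 8.45%). The counts by role cover only genes picked by name. In them 5 of 6 outer ring genes fell, 3 of 5 genes of the Ran cycle, 2 of 4 importin alpha genes and 4 of 12 genes of the importin beta family. Of the exportins 1 of 6 fell, and of the cytoplasmic filament genes (3) and basket genes (2) none did. Ranbp3l lay below the 25th percentile on all arrays.

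**Figure D1:**
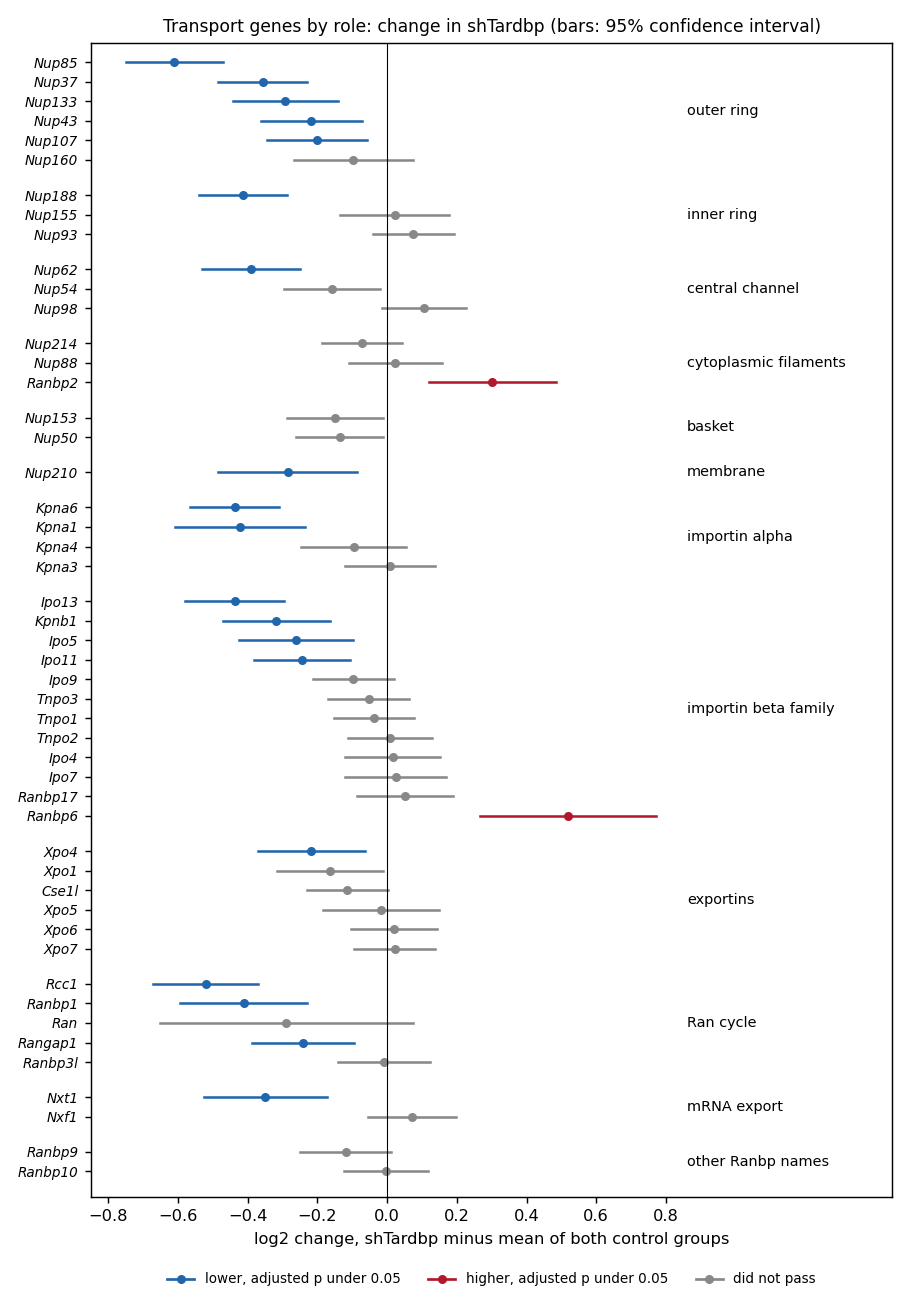
Log2 change in shTardbp minus the mean of both control groups for the 49 transport genes, grouped by role, with points for the fitted change and bars for its 95% confidence interval (11 arrays). Blue genes (19) were lower and red genes (2) higher past an adjusted p of 0.05, and 5 of the 6 outer ring genes shown are blue.

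Arrays also carry a code in the labels that starts with the letter P or C, whose meaning the labels do not give. All 4 shTardbp arrays and shLuciferase 4 have the letter P, and the other 6 controls have C, so letter and hairpin overlap almost entirely. With the letter as a block, 5 transport genes passed (15.9% of all genes): Nup85 (-0.59, adjusted p = 0.00674), Kpna6 (-0.47, adjusted p = 0.0138), Ipo13 (-0.53, adjusted p = 0.0128) and Nup37 (-0.43, adjusted p = 0.0175) were lower, and Nup155 was higher (0.33, adjusted p = 0.0358). Tardbp itself no longer passed in that fit (-0.29, adjusted p = 0.173). Within the P arrays alone, all 4 shTardbp values lay below shLuciferase 4 for 17 of the 19 lower transport genes, as they did for 2298 of the 2684 lower genes of the whole table. Both sets of lower genes were called in a fit with shLuciferase 4 among the controls, so these counts are no check of the letter. A single control array allows no test.

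Promoter sequence was available for 40 of the 49 genes, 14 of the 19 lower ones and 26 of the others, from RefSeq on GRCm38.p6, and was read from 250 bases before to 30 bases after the annotated start. Motifs of cell cycle and housekeeping promoters were searched on both strands. The E2F motif (TTTGGCGC, TTTCGCGC, TTTCCCGC or TTTGCCGC) is bound by the E2F factors of the G1 to S transition. It was found at 3 of 14 lower genes (Nup210, Nxt1 and Ranbp1) and 1 of 26 others, against 2.45% of all 27025 genes with a promoter entry. A gene counted if any of its promoters held a match. In this paragraph all genes means those 27025, a wider set than the genes measured here and so not a like background. The cell cycle homology region, CHR (TTTGAA or TTCGAA), was found at 5 of 14 lower genes (Ipo11, Nup37, Ranbp1, Rangap1 and Rcc1) and 4 of 26 others, against 20.9% of all genes. The NRF1 motif (GCGC and GCGC parted by an A and any base), typical of housekeeping promoters, was found at 3 of 14 lower genes (Nup107, Nup62 and Nxt1) and 4 of 26 others, against 4.98% of all genes. The CCAAT box was found at 7 of 14 lower genes and 12 of 26 others, against 39.7% of all genes. None of these shares was tested, a match is no evidence of binding, and the matches printed here do not overlap one another. Below are 4 promoters of genes that were lower in shTardbp, chosen because each holds more than one kind of match, with the matches in capitals and each printed 5′ to 3′ on the gene's own strand. Ranbp1 (chr16:18248665-18248944, minus strand) holds CCAAT, then a CHR, then an E2F match.
Ranbp1: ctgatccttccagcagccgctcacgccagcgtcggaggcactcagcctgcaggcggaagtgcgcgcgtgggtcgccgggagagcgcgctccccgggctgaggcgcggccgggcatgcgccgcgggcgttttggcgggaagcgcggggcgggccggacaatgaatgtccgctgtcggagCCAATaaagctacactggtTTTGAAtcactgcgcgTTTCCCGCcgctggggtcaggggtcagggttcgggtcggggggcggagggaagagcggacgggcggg
Nxt1 (chr2:148672365-148672644, plus strand) holds CCAAT, then an E2F match, then an NRF1 match past the start.
Nxt1: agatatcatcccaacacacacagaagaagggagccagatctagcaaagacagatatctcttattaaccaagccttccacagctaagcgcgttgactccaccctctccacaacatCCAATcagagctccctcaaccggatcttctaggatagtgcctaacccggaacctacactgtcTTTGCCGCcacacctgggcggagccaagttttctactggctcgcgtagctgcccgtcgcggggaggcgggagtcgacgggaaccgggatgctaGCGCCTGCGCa
Nup62 (chr7:44815838-44816117, plus strand) holds CCAAT on each strand and an NRF1 match.
Nup62: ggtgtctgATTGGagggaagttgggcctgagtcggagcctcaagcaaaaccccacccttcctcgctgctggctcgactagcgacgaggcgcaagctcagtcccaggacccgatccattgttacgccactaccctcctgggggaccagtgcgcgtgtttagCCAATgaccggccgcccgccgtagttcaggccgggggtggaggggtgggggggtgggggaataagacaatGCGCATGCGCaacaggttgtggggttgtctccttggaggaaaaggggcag
Nup37 (chr10:88146742-88147021, plus strand) holds a CHR match on each strand, then CCAAT. Another annotated promoter of Nup37, not printed, holds the same matches.
Nup37: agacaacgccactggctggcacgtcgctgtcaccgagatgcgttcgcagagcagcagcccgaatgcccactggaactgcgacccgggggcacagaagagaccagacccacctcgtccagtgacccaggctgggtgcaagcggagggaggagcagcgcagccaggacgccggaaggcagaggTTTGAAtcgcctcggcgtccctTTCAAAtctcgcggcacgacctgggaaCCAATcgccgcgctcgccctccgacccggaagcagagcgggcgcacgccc

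The outer ring, or Y complex, is the scaffold that coats both faces of the pore. Of its 6 genes picked by name, 5 were lower in shTardbp, with a median log2 change of -0.26 over the 6. Its subunits Sec13 (-0.07, adjusted p = 0.428) and Seh1l (-0.10, adjusted p = 0.387), whose symbols the name rule does not pick, did not pass. Neither did Ahctf1, which binds the complex (-0.11, adjusted p = 0.294). Nup85, a core subunit of the complex, had gene values of 9.49, 9.59, 9.32 and 9.39 in shTardbp, against 10.13, 10.03, 9.997 and 9.94 in shGFP and 10.07, 10.13 and 10.08 in shLuciferase. The groups did not overlap, and the change of -0.61 (SE 0.0642, adjusted p = 8.29e-06) left 65.5% of the control value. Nup37, a small subunit whose promoter is printed above, had 8.57, 8.50, 8.50 and 8.41 in shTardbp, against 8.94, 8.84, 8.76 and 8.81 in shGFP and 8.78, 8.90 and 8.93 in shLuciferase. Again no shTardbp value reached a control value, with a change of -0.36 (SE 0.0589, adjusted p = 0.000352). Nup133, which sits at the stem of the Y, had 9.36, 9.33, 9.28 and 9.30 in shTardbp, against 9.48, 9.68, 9.64 and 9.51 in shGFP and 9.75, 9.74 and 9.45 in shLuciferase. Its lowest control value, shLuciferase 4, still lay above the highest shTardbp value, and the change was -0.29 (SE 0.07, adjusted p = 0.00524). Nup43 was lower by -0.22 (adjusted p = 0.0245) without overlap, and Nup107 by -0.20 (adjusted p = 0.0324) with overlap. Nup160, another core subunit, ranged from 8.89 to 9.07 in shTardbp and 8.83 to 9.20 in the controls and did not pass (-0.10, adjusted p = 0.439). The calls of Nup43 and Nup107 rest on single arrays: Nup43 did not pass without shTardbp 3, shTardbp 4, shLuciferase 1 or shLuciferase 2 (adjusted p up to 0.0792), and Nup107 did not pass without shTardbp 1, 2 or 3, shGFP 3 or 5, or shLuciferase 1 or 2 (adjusted p up to 0.105), with the median of its probe sets (-0.12, adjusted p = 0.383) or with the replicate block (adjusted p = 0.0711).

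In the inner ring, which anchors the channel, 1 of 3 genes was lower. Nup188 had 9.67, 9.67, 9.53 and 9.55 in shTardbp, against 10.05, 10.09, 10.03 and 9.94 in shGFP and 10.07, 10.05 and 9.92 in shLuciferase. All shTardbp values lay below all control values, with a change of -0.41 (SE 0.0587, adjusted p = 9.93e-05). Its ring partners Nup93 (0.07, adjusted p = 0.369) and Nup155 (0.02, adjusted p = 0.89) did not pass. In the central channel, Nup62, which fills the channel with phenylalanine-glycine repeats, had 8.47, 8.53, 8.30 and 8.39 in shTardbp, against 8.80, 8.89, 8.83 and 8.68 in shGFP and 8.90, 8.86 and 8.73 in shLuciferase. The groups were apart, with a change of -0.39 (SE 0.0652, adjusted p = 0.000387). Nup54, which binds Nup62 in the channel, had a change of -0.16 that did not pass (adjusted p = 0.0797). Nup98, a mobile nucleoporin that also binds RNA export factors, had 12.37, 12.27, 12.39 and 12.41 in shTardbp, against 12.24, 12.25, 12.31 and 12.31 in shGFP and 12.30, 12.25 and 12.14 in shLuciferase. All but one of its shTardbp values exceeded every control, but the change of 0.11 (95% interval -0.01 to 0.23, adjusted p = 0.189) did not pass.

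Outside the frame, the pattern was mixed. Ranbp2, the large cytoplasmic filament protein that binds Ran and acts as a SUMO ligase, had 10.60, 10.22, 10.62 and 10.54 in shTardbp, against 9.98, 10.02, 10.22 and 10.20 in shGFP and 10.37, 10.18 and 10.30 in shLuciferase. It was higher by 0.30 (SE 0.0849, adjusted p = 0.0145), or 123% of control, with shTardbp 2 inside the control range, and it did not pass without shTardbp 1 (adjusted p = 0.0529) or shTardbp 3 (adjusted p = 0.0599), or with the median of its probe sets (0.28, adjusted p = 0.0606). The other filament genes, Nup88 (0.02, adjusted p = 0.86) and Nup214 (-0.07, adjusted p = 0.378), did not pass, nor did the basket genes Nup153 (-0.15, adjusted p = 0.097) and Nup50 (-0.14, adjusted p = 0.0995). Both basket genes were lower without shLuciferase 4 (Nup153 by -0.19, adjusted p = 0.0217, and Nup50 by -0.16, adjusted p = 0.0444) and with array weights. Nup153 was also lower with the median of its probe sets (-0.29, adjusted p = 0.0174), and Nup50 without shGFP 1 (-0.16, adjusted p = 0.0452). But shLuciferase 4 is the only control array with the letter P, so without it letter and hairpin overlap fully. With the letter as a block, Nup153 (0.04, adjusted p = 0.822) and Nup50 (-0.02, adjusted p = 0.939) did not pass. Nup210, a nucleoporin that spans the membrane, had 9.28, 8.98, 8.87 and 8.88 in shTardbp, against 9.26, 9.40, 9.32 and 9.18 in shGFP and 9.40, 9.41 and 9.05 in shLuciferase. It was lower by -0.29 (SE 0.0931, adjusted p = 0.0313), with shTardbp 1 and shLuciferase 4 overlapping. This call is thin: it was lost without any 1 of shTardbp 2, 3 or 4, shGFP 2 or 3, or shLuciferase 1 or 2 (adjusted p of 0.0521 to 0.113), and neither control alone gave it (adjusted p of 0.0561 against shGFP and 0.0851 against shLuciferase).

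Importin alpha proteins read the classical nuclear localisation signal of a cargo and hand it to importin beta, and 2 of their 4 measured genes were lower. Kpna6 had 9.60, 9.47, 9.51 and 9.48 in shTardbp, against 9.76, 9.96, 9.96 and 9.81 in shGFP and 10.02, 10.02 and 10.06 in shLuciferase. No shTardbp value reached a control value, and the change was -0.44 (SE 0.0594, adjusted p = 7.19e-05). Kpna1 had 8.14, 8.17, 8.35 and 8.42 in shTardbp, against 8.49, 8.90, 8.90 and 8.68 in shGFP and 8.67, 8.70 and 8.55 in shLuciferase. The groups again stood apart, by -0.42 (SE 0.0867, adjusted p = 0.00186), though shTardbp 4 came close to shGFP 1. Kpna4 (-0.10, adjusted p = 0.374) and Kpna3 (0.01, adjusted p = 0.951) did not pass.

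In the importin beta family of 12 genes, 4 were lower and 1 was higher. Kpnb1, the importin beta that carries importin alpha and its cargo through the pore, had 10.89, 10.81, 10.74 and 10.82 in shTardbp, against 10.84, 11.15, 11.09 and 11.08 in shGFP and 11.33, 11.26 and 11.08 in shLuciferase. It was lower by -0.32 (SE 0.0718, adjusted p = 0.00363), or 80.2% of control, with shGFP 1 inside the shTardbp range. Ipo13, which also works as an exporter, had 8.52, 8.49, 8.45 and 8.56 in shTardbp, against 8.65, 8.79, 8.80 and 8.57 in shGFP and 9.25, 9.04 and 9.25 in shLuciferase. Its shTardbp values lay just under shGFP and far under shLuciferase, and the change against both was -0.44 (SE 0.0661, adjusted p = 0.000175). Ipo5, an importer of ribosomal proteins and histones, had 9.52, 9.60, 9.51 and 9.61 in shTardbp, against 9.52, 9.84, 9.81 and 9.94 in shGFP and 9.80, 9.96 and 9.82 in shLuciferase. It was lower by -0.26 (SE 0.0761, adjusted p = 0.0176), with shGFP 1 overlapping, and did not pass without shTardbp 1 (adjusted p = 0.051) or shTardbp 3 (adjusted p = 0.0582). Ipo11 was lower by -0.24 (adjusted p = 0.00892) but did not pass with the median of its probe sets (adjusted p = 0.0548) or with the 7 controls as 1 group (adjusted p = 0.127). Ranbp6, a relative of Ipo5, had 7.29, 7.20, 7.55 and 7.84 in shTardbp, against 7.21, 6.81, 7.22 and 7.20 in shGFP and 6.68, 6.82 and 6.88 in shLuciferase. It was higher by 0.52 (SE 0.117, adjusted p = 0.00368), or 143% of control, while shTardbp 2 lay within the shGFP range. The other 7 genes of the family, with Tnpo1 and Tnpo3 among them, did not pass.

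Exportins bind their cargo together with Ran carrying GTP, and 1 of 6 measured genes was lower. Xpo1, the main exporter of proteins with a leucine-rich signal, had 10.93, 10.89, 11.01 and 11.002 in shTardbp, against 11.14, 11.12, 11.21 and 11.22 in shGFP and 11.23, 11.16 and 10.85 in shLuciferase. All shTardbp values lay below every control except shLuciferase 4, and the change of -0.16 (95% interval -0.32 to -0.01) did not pass over all genes (adjusted p = 0.106). Without shLuciferase 4, the only control array with the letter P, the change of Xpo1 was -0.22 (adjusted p = 0.00674). It was -0.20 with array weights (adjusted p = 0.0105) and 0.12 with the letter as a block (adjusted p = 0.443). Xpo4 was lower by -0.22 (adjusted p = 0.0315) but did not pass without any 1 of shTardbp 2 or 3, shGFP 3 or 5, or shLuciferase 1 or 2 (adjusted p of 0.0531 to 0.12), with the median of its probe sets (-0.12, adjusted p = 0.472), with the 7 controls as 1 group (adjusted p = 0.0927) or with the replicate block (adjusted p = 0.0783). Cse1l, which returns importin alpha to the cytoplasm, had a change of -0.11 (adjusted p = 0.142), and Xpo5, the exporter of microRNA precursors, -0.02 (adjusted p = 0.921).

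The Ran cycle had 3 lower genes of 5, with a median change of -0.29. Rcc1, the chromatin-bound exchange factor that loads Ran with GTP, had 8.37, 8.33, 8.33 and 8.32 in shTardbp, against 8.81, 8.95, 8.94 and 8.82 in shGFP and 8.96, 8.95 and 8.62 in shLuciferase. The 4 shTardbp values were nearly equal and lay under all controls, with a change of -0.52 (SE 0.0704, adjusted p = 6.88e-05), or 69.7% of control. Ranbp1, which helps strip Ran of its carriers, had 10.03, 9.95, 9.89 and 9.80 in shTardbp, against 10.29, 10.47, 10.44 and 10.58 in shGFP and 10.21, 10.43 and 9.99 in shLuciferase. It was lower by -0.41 (SE 0.0844, adjusted p = 0.00186), with shLuciferase 4 inside the shTardbp range. Rangap1, the activator of GTP hydrolysis, was lower by -0.24 (adjusted p = 0.0145) but not with the median of its probe sets as the gene value (-0.22, adjusted p = 0.0686). Ran itself was measured by 1 probe set and had 10.53, 10.60, 10.23 and 10.07 in shTardbp, against 10.39, 11.01, 10.73 and 10.004 in shGFP and 10.77, 11.03 and 10.49 in shLuciferase. Its samples scattered widely within each group, and the change of -0.29 (95% interval -0.65 to 0.07) did not pass (adjusted p = 0.246). With the replicate number as a block Ran did pass (-0.33, adjusted p = 0.0217), which makes 4 lower genes of 5 in the cycle.

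Bulk mRNA leaves through the pore with the dimer of Nxf1 and Nxt1, and 1 of these 2 genes passed. Nxt1 had 6.78, 7.08, 6.96 and 6.89 in shTardbp, against 7.30, 7.34, 7.17 and 6.98 in shGFP and 7.46, 7.22 and 7.40 in shLuciferase. It was lower by -0.35 (SE 0.0821, adjusted p = 0.00469), with shGFP 5 inside the shTardbp range. Nxf1 had 11.38, 11.38, 11.34 and 11.22 in shTardbp, against 11.34, 11.23, 11.30 and 11.23 in shGFP and 11.30, 11.28 and 11.15 in shLuciferase. These values overlapped, and the change of 0.07 (95% interval -0.05 to 0.20, adjusted p = 0.441) did not pass.

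**Figure D2:**
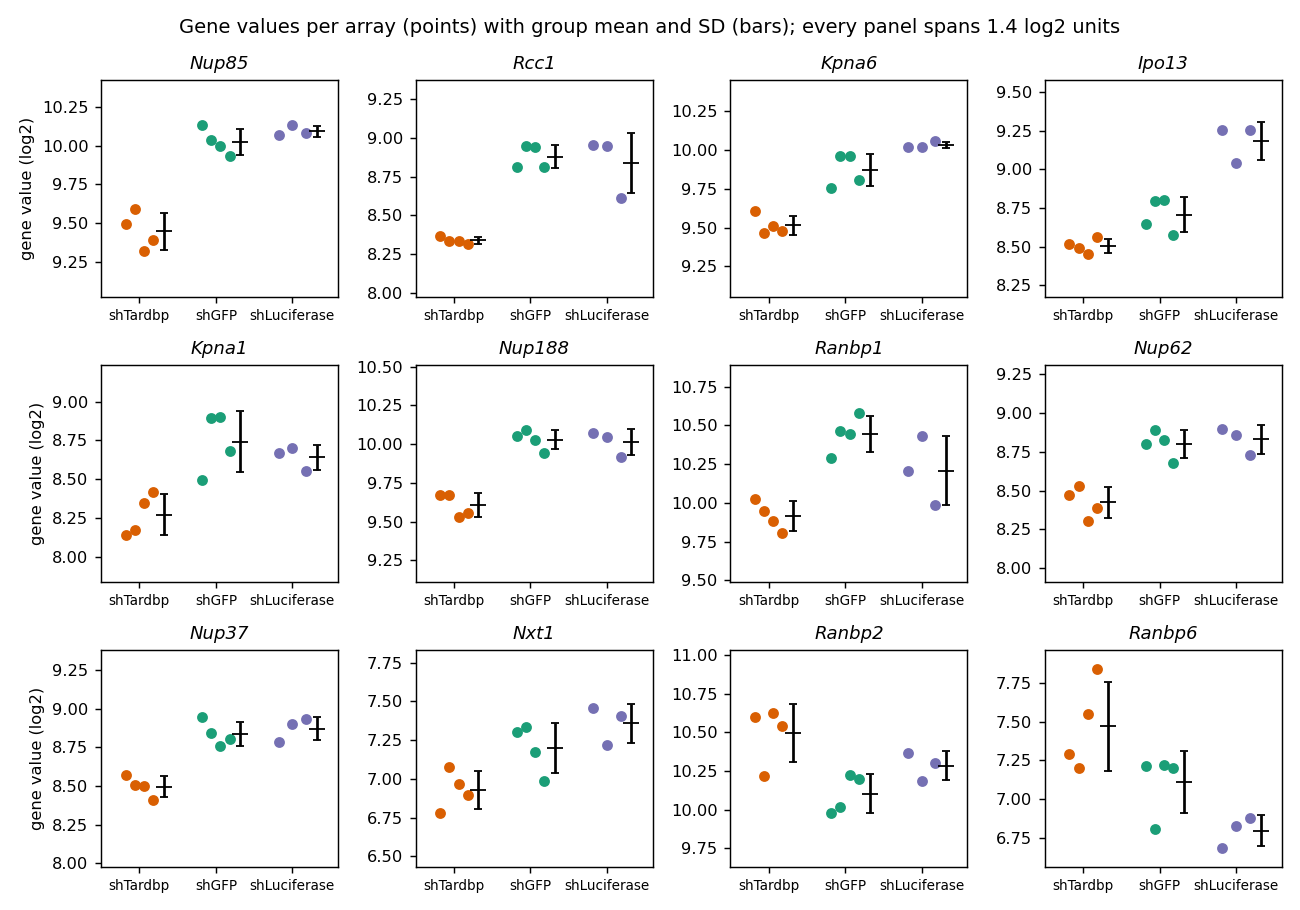
Gene values on the log2 scale of 12 transport genes, 1 point per array in shTardbp (4), shGFP (4) and shLuciferase (3), with the group mean and SD as bars. Nup85, Rcc1, Kpna6, Ipo13, Kpna1, Nup188, Nup62 and Nup37 have all shTardbp points below all control points, while Ranbp1, Nxt1, Ranbp2 and Ranbp6 overlap with a control group.

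Each control hairpin was also set against shTardbp on its own. The comparisons share the 4 shTardbp arrays. Against shGFP, 10 transport genes were lower and 2 higher (27.9% of all genes passed, 15.5% lower and 12.4% higher). With the replicate number as a block, Nup133 (-0.24, adjusted p = 0.076) and Nup214 (0.20, adjusted p = 0.0822) did not pass against shGFP and Ipo13 did (-0.26, adjusted p = 0.0484). Against shLuciferase, 19 were lower and 1 higher (26.1% of all genes passed, 14.3% lower and 11.8% higher). Without shLuciferase 2 the count against shLuciferase was 12 lower and 1 higher, with the share of all genes in that fit not given. Passing against each control on its own in the same direction, 10 genes were lower (background 9.39%) and none was higher (background 7.69%). The 10 were Nup85, Nup37, Nup133, Nup188, Nup62, Kpna6, Kpna1, Rcc1, Ranbp1 and Nxt1. Nup85, for example, changed by -0.58 against shGFP (adjusted p = 4.56e-05) and by -0.65 against shLuciferase (adjusted p = 3.9e-05). Neither rise passed against each control on its own. Ranbp2 was higher by 0.39 against shGFP (adjusted p = 0.00658) and had 0.21 against shLuciferase (adjusted p = 0.168). Ranbp6 had 0.36 against shGFP (adjusted p = 0.0571) and was higher by 0.68 against shLuciferase (adjusted p = 0.0028). None of the 12 importin beta family genes passed against shGFP, while 4 were lower and 1 higher against shLuciferase, and the controls differed from each other at 3 of the 12 (Ipo13, Ipo11 and Ranbp17). Kpnb1 had -0.23 against shGFP (adjusted p = 0.0516) and was lower by -0.41 against shLuciferase (adjusted p = 0.00299).

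The controls differed from each other at 5 transport genes, each lower in shGFP than in shLuciferase (11.1% of all genes passed, 4.82% lower and 6.26% higher). The count was 3 without shGFP 2, shGFP 5 or shLuciferase 2 and 2 without shLuciferase 1. This contrast is also the test of the difference between the single-control comparisons. Nup214, a cytoplasmic filament nucleoporin, had 9.35, 9.32, 9.33 and 9.31 in shTardbp, against 9.08, 9.15, 9.19 and 9.04 in shGFP and 9.74, 9.67 and 9.65 in shLuciferase. The 3 groups did not overlap and shTardbp stood between the controls: it was higher than shGFP by 0.21 (adjusted p = 0.0153) and lower than shLuciferase by -0.36 (adjusted p = 0.000909), a reversal that 0.487% of all genes showed. The difference of shGFP from shLuciferase was -0.57 (SE 0.0644, adjusted p = 6.67e-05), and with the uncentred median of its chromosomal neighbours subtracted it was -0.18 (adjusted p = 0.294). The rise over shGFP did not pass with the replicate block, as given above. For Ipo13 it was -0.48 (SE 0.0803, adjusted p = 0.00154), and its change in shTardbp was -0.20 against shGFP (adjusted p = 0.0632) and -0.68 against shLuciferase (adjusted p = 3.43e-05). Ipo11 had 10.002, 9.96, 10.13 and 10.16 in shTardbp, against 10.04, 10.07, 10.20 and 10.24 in shGFP and 10.51, 10.41 and 10.50 in shLuciferase. Thus shTardbp and shGFP overlapped (-0.08, adjusted p = 0.529), and shLuciferase stood above both, with a difference of shGFP from shLuciferase of -0.34 (SE 0.0772, adjusted p = 0.0118), which did not pass without shLuciferase 1 (adjusted p = 0.0533). Ranbp17, a relative of exportins and importins, had 8.94, 8.85, 9.004 and 9.13 in shTardbp, against 8.76, 8.70, 8.83 and 8.88 in shGFP and 8.996, 9.12 and 9.07 in shLuciferase. Ranbp10 had 8.92, 8.92, 8.93 and 8.93 in shTardbp, against 8.89, 8.67, 8.88 and 8.77 in shGFP and 9.03, 9.04 and 9.09 in shLuciferase. In both genes shGFP lay below shLuciferase in every array, by -0.27 for Ranbp17 (adjusted p = 0.0431) and -0.25 for Ranbp10 (adjusted p = 0.0301). Both calls were lost without several single arrays, with adjusted p up to 0.151 for Ranbp17 (without shLuciferase 2) and up to 0.0793 for Ranbp10 (without shGFP 5), and neither passed with the replicate block (adjusted p = 0.116 for Ranbp17 and 0.151 for Ranbp10). With the median of probe sets Ipo13 did not pass between the controls either (-0.40, adjusted p = 0.0607).

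**Figure D3:**
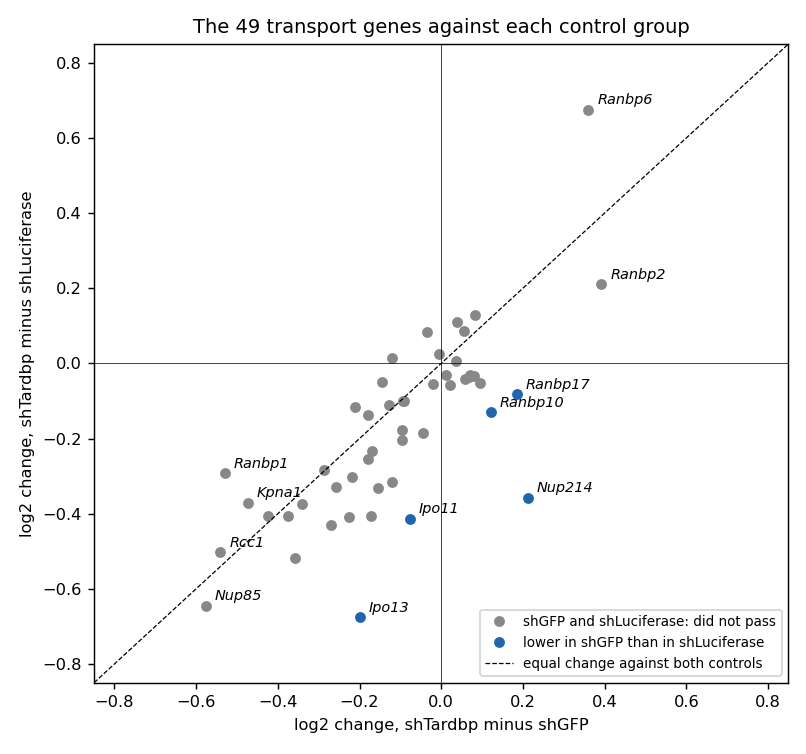
Log2 change of the 49 transport genes in shTardbp minus shGFP (horizontal) and shTardbp minus shLuciferase (vertical), which share the shTardbp arrays, with a dashed line for equal change. The 5 blue genes were lower in shGFP than in shLuciferase, and Nup214 is the one that passed in opposite directions (0.21 and -0.36).

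Single probe sets of a gene show whether a change covers the transcript. The 49 genes have 1028 probe sets, of which 140 (13.6%) were lower and 6 (0.584%) higher on their own, with adjustment over all 194293 probe sets (background 8.12% lower and 7.31% higher). In 12 of the 19 lower genes every probe set had a negative change. The genes were called on the mean of these same probe sets, so mostly negative signs follow from the call. Nup85 had 17 of 19 probe sets lower, Nup188 33 of 46, Kpna6 12 of 14, Ipo13 11 of 21 and Rcc1 8 of 13. In these genes most probe sets passed on their own. Only 7 of the 19 lower genes had at least as many probe sets past the threshold as not. Nup107 had 2 of 27 past it, Nup43 1 of 10 and Xpo4 2 of 20. Kpnb1 had all 30 probe sets negative and 7 past the threshold. Nup210 had 45 of 46 negative and 2 past the threshold. Among the rises, Ranbp2 had 34 of 35 probe sets positive and 4 higher, and Ranbp6 all 6 positive and 2 higher.

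**Figure D4:**
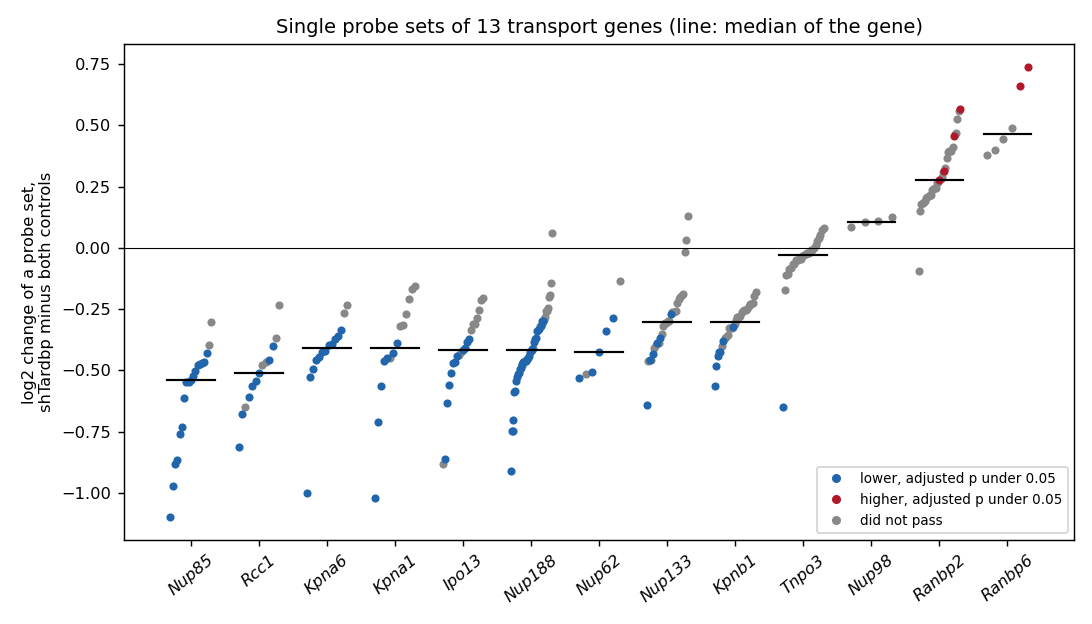
Log2 change in shTardbp minus both controls of each probe set (points) of 13 transport genes, ordered within a gene, with the gene's median as a line. Nup85 has 17 of 19 probe sets in blue (lower), Nup98 has none that passed, and 1 blue probe set of Tnpo3 lies far below the others of its gene.

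A change of 1 probe set relative to the others of its gene, called usage here, can mark a transcript stretch that is used more or less. Of 1004 transport probe sets tested in 47 genes, 1 passed (0.0996%), against 0.879% of the 101898 probe sets of the whole table. It belongs to Tnpo3, the importer of serine-arginine-rich splicing factors, and had 7.69, 7.84, 7.27 and 7.64 in shTardbp, against 7.91, 8.21, 8.24 and 8.23 in shGFP and 8.21, 8.41 and 8.48 in shLuciferase. Its values did not overlap between shTardbp and the controls, with a usage difference of -0.62 (SE 0.119, adjusted p = 0.0383), while the gene value of Tnpo3 did not pass (-0.05, adjusted p = 0.553). The call was kept without shGFP 1 or shTardbp 2 and was lost without any other single array, with the replicate block, with the array letter as a block and with trend and robust eBayes. Tnpo3 also had a usage call without the filter on low probe sets and with limma diffSplice. The position of the probe set in the transcript was not used here.

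Genes that lie side by side on a chromosome can shift together, so each gene was set beside the 20 measured genes on either side in RefSeq order. Nup188 had 40 such neighbours, 22 lower and 3 higher in shTardbp (neighbour median -0.23). Ranbp17 had 21 lower and 1 higher neighbours (median -0.24), although its own change was 0.05. Ipo13 had 16 lower and none higher (median -0.11), Ranbp1 15 lower and 1 higher (median -0.12), and Xpo1 14 lower and 2 higher (median -0.16). The shares stand beside 17.0% lower and 13.5% higher in the table as a whole. By contrast Nup85 had 8 lower and 3 higher neighbours (median -0.03) and Nup62 had 5 lower and 9 higher (median 0.04). With the shift of the neighbours subtracted in each array, an alternative chosen after seeing the data, 18 transport genes were lower and 3 higher. Nup188 then stood at -0.15 (adjusted p = 0.0425) and Nup85 at -0.55, while Ipo5 (adjusted p = 0.0751) and Nup107 (adjusted p = 0.0592) did not pass. When the median of the neighbours itself was subtracted, uncentred, so that the 1 or 2 genes in the middle set it, 15 transport genes were lower and 2 higher, and 11 of the 21 calls were lost. Nup188 (-0.0400, adjusted p = 0.716), Nup37 (-0.0906, adjusted p = 0.423), Ranbp1 (-0.0535, adjusted p = 0.714), Nup133 (-0.14, adjusted p = 0.164) and Ipo5 (-0.24, adjusted p = 0.0594) did not pass, nor did the rises of Ranbp2 (0.0155, adjusted p = 0.906) and Ranbp6 (0.15, adjusted p = 0.43). Ipo13 (0.0509), Kpna1 (0.0920), Ipo11 (0.17) and Nup107 (0.14) turned positive and did not pass. Of the outer ring genes 2 of 6 were then lower, Nup85 (-0.49, adjusted p = 0.000144) and Nup43, and of the inner ring none, while Rcc1 (-0.44), Kpna6 (-0.43) and Nup62 (-0.58) still passed. Calls gained in that fit were the rises of Nup98 (0.58, adjusted p = 0.00011) and Ranbp17 (0.90, adjusted p = 2.43e-06). Cse1l, Ipo4, Ipo9, Nxf1 and Xpo7 were gained as lower. The shares of all genes that passed in these neighbour fits are not given here, so their counts stand without a background.

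**Figure D5:**
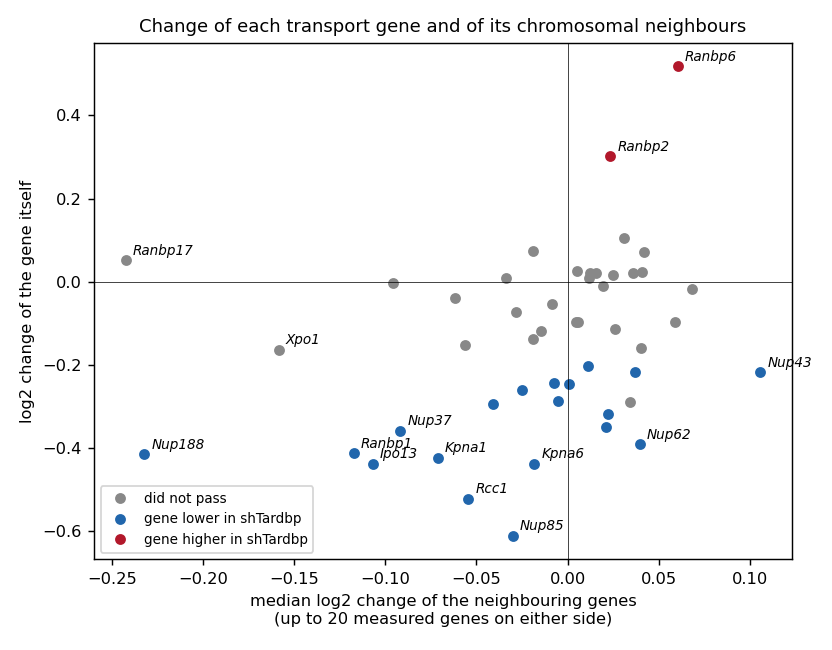
Log2 change of each transport gene in shTardbp minus both controls (vertical) against the median log2 change of up to 20 measured genes on either side of it (horizontal). Nup188 lies at a neighbour median of -0.23, and Nup85, the lowest gene, at -0.03.

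Of 32 other genes of nuclear transport whose platform symbols the name rule does not pick, 14 were lower, 2 higher and 16 did not pass, with a median of -0.16. Each count in this paragraph stands beside 17.0% lower and 13.5% higher among all genes, and no list was tested as a set. Tmem48, the older name of the membrane nucleoporin Ndc1, which the rule names only by its newer symbol, was lower by -0.57 (adjusted p = 1.04e-05). Gle1, which works at the cytoplasmic face in mRNA export, was lower by -0.57 (adjusted p = 1.88e-05). Ddx39, an export helicase, was lower by -0.52 (adjusted p = 6.03e-05), and Thoc5, of the THO complex that couples transcription to export, by -0.51 (adjusted p = 6.05e-05). The 2 higher genes were Thoc1 and Phax (0.23 each), named after their values were seen. Of 19 nuclear envelope and lamina genes 6 were lower and none higher, led by Tmpo (-0.34, adjusted p = 0.000639), Lmnb2 (-0.49, adjusted p = 0.000738), Lbr (-0.46, adjusted p = 0.00273) and Tor1aip1 (-0.25, adjusted p = 0.00656). Of 6 genes of the SUMO pathway 3 were lower, Sae1 (-0.45), Senp2 (-0.40) and Senp1 (-0.23). Of 31 cell cycle genes 28 were lower and none higher, with a median of -0.51, among them Ndc80 (-1.03), Hmmr (-1.04), Cdc20 (-1.13) and Tyms (-0.77). Between shGFP and shLuciferase 1 of these 31 differed, beside 11.1% of all genes. The transport genes' share in that shift of the cell cycle genes was not tested.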

How the data were processed

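RNA of 11 samples was measured on Affymetrix whole-transcript arrays. The authors deposited log2 values for 194293 probe sets, made with Partek and RMA per the submitters' processing notes. The version, background setting and genome build were not given in the sources used here. Probe sets with exactly 1 gene symbol in the platform annotation (179496) were kept, which gave 15803 genes, typically with 9 probe sets (median). Symbols can be old. The number of arrays limits the precision.

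Probe sets were averaged to a value per gene. With limma 3.58.1 (R 4.3.3), lmFit and eBayes fitted 3 group means to the whole table. Low genes were kept, and Benjamini-Hochberg adjustment ran over all genes with a threshold of 0.05. Usage of a probe set was its value minus the mean of the gene's other probe sets, for probe sets above the 25th percentile, where their gene exceeded the median gene and had at least 3 of them. The scripts were tested on simulated data first.

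The members, roles, lists and tests were chosen with earlier results of these data known. Values per array were given for up to 14 members with the largest falls and up to 10 with the largest rises past the threshold, up to 6 that differed most between the controls, for Ran, Kpnb1, Xpo1, Nup98, Ranbp2 and Nxf1, and for members with a usage call. Up to 4 genes of each other list with the smallest adjusted p were named. Alternatives were the median of probe sets, a filter on low genes, quantile normalization again, centring of arrays, trend and robust eBayes, array weights, the array letter and the replicate number as blocks, leaving out each array, subtracting chromosomal neighbours, pooled controls, and for usage no filter and diffSplice. The labels' replicate numbers were checked for pairing by the correlation of same-numbered arrays' deviations from their group means. All 3 pairs of shTardbp and shGFP exceeded 0.1 (0.116 to 0.201), so the blocked value stands beside a result where it changes a call; of the 5 pairs with shLuciferase 2 did. Promoters came from RefSeq (GRCm38.p6), and its gene table served only for gene order.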

Additional observations from a re-analysis of the deposited data

Results flagged for a closer look

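Among 98 groups of 4 arrays (49 genes in shTardbp and in shGFP), 2 had a sample set apart from the rest by a gap above Dixon's critical value for the group's size, where chance flags about 1 in 20 groups. Tnpo2 in shTardbp 2 was 10.62, with the nearest other shTardbp array at 10.54 and the furthest at 10.53. Ranbp6 in shGFP 2 was 6.81, with the nearest other shGFP array at 7.20 and the furthest at 7.22.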

How the results depend on the processing

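The number of transport genes past the threshold in shTardbp against both controls was 21. The array letter as a block gave 5, and leaving out single arrays gave 15 to 24. Every other alternative run gave 17 to 27. Apart from the letter block above, the shares of all genes that passed in these refits are not given. The refit counts, here and in the sections above, thus stand without a background. A similar count can hold other genes: with the uncentred median of the neighbours subtracted, 11 calls were lost and 7 gained. With the letter as a block the count was 3 against shGFP and 9 against shLuciferase, Nup210 (0.0123), Ran (0.0498) and Xpo1 (0.12) turned positive, and Tardbp was -0.29 (adjusted p = 0.173). With array weights the count was 21 against shGFP. Leaving out single arrays gave 10 to 15 against shGFP and 13 to 23 against shLuciferase. Between shGFP and shLuciferase the count of 5 became 2 with the median of probe sets, 3 with centred arrays, 10 with array weights, 3 with the replicate block, 2 with neighbours subtracted, 3 with the shift of the neighbours subtracted, and 2 to 5 without single arrays. With the uncentred median of the neighbours subtracted, which the 1 or 2 genes in the middle set, Ipo13 (0.0509), Kpna1 (0.0920), Ipo11 (0.17), Nup107 (0.14), Xpo1 (0.0372) and Nxf1 (-0.25) changed sign, and with the centred shift Nxf1 was -0.0143. Usage calls among transport probe sets were 1 in the reported fit, 0 with the replicate block, 0 to 2 without single arrays, 2 without the filter and 11 with diffSplice. With the replicate block 20 transport genes passed against both controls (Ran gained, Xpo4 and Nup107 lost) and 11 against shGFP. The cause of these shifts was not tested. With 3 or 4 arrays a group, small changes may be missed, and genes near the array's low end, such as Ranbp3l, cannot be told from background.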
